A study of Mus musculus with 12 samples.

Results

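The sensory neuropeptides measured here were the mRNAs of 10 precursor genes, Calca, Calcb, Tac1, Gal, Sst, Npy, Adcyap1, Nppb, Vip and Cartpt, taken by symbol from the 22609 genes of the count tables. They were followed in trigeminal ganglion (TG) neurons that innervate the tongue. In athymic nude mice, which lack T cells, these neurons were labeled on day 13 by injecting the tracer wheat germ agglutinin (WGA, 0.5% by the sample labels) into the tongue, and WGA-bright cells were flow-sorted on day 15. There were 4 groups with 3 samples each. MN and FN are the males and females without a tumor, and MT and FT are the males and females that bore one. The tumor grew from 350000 HSC3 cells, an established human line of oral squamous cell carcinoma, inoculated into the tongue. By the labels the normal mice received no cells, whereas the study's methods describe an injection of normal human keratinocytes, so whether MT and FT are set against injected or uninjected tongues cannot be told apart. A normal sample pooled 4 TGs of 2 mice and a tumor sample pooled 4 ipsilateral TGs of 4 mice, so a replicate is a pool and not an animal. All values are from bulk RNA of sorted cells, in which a change in the share of neurons that make a peptide and a change in the mRNA of each neuron cannot be told apart.

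Neuropeptides are cut from larger precursor proteins by convertases, packed into dense-core vesicles and released from the endings and cell bodies of sensory neurons, where they act on G protein-coupled or guanylyl cyclase receptors. Small-diameter nociceptors that make calcitonin gene-related peptide (CGRP) and substance P are known as peptidergic. Galanin and neuropeptide Y are known as peptides that sensory neurons switch on after damage to their axons, and somatostatin and brain natriuretic peptide are known from neurons that signal itch.

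Promoter sequences are shown for 4 members, because their mRNAs behaved in different ways below although 3 of them hold the same short motif. Gal is the member that rose in MT, Sst differed in the opposite direction, the MT to MN difference of Cartpt was within its standard error, and Vip was at the limit of detection. RefSeq (GRCm38.p6) gave a promoter for 9 of the 10 members, and the stretches were placed in the mouse build mm9, the build of the counts, by an exact match found once in the genome. For Gal (chr19:3414545-3414794, minus strand) and Sst (chr16:23890931-23891180, minus strand) the 250 bases before the start are printed. For Cartpt (chr13:100670697-100670796, minus strand) and Vip (chr10:4707349-4707448, minus strand) a window of 100 bases is printed. Capitals mark the cAMP response element TGACGTCA or the shorter TGACGT that lies within it.
Gal: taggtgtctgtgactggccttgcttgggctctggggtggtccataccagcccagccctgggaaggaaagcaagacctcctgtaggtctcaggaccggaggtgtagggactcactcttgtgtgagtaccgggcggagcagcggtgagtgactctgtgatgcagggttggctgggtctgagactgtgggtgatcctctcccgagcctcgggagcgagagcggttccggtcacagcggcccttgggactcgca
Sst: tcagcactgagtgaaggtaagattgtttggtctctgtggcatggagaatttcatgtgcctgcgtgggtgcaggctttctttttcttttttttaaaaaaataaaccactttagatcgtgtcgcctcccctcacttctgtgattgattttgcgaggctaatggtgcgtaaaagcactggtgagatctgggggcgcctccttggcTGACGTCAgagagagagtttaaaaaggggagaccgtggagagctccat
Cartpt: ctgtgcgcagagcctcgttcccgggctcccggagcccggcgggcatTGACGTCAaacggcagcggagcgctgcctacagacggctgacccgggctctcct
Vip: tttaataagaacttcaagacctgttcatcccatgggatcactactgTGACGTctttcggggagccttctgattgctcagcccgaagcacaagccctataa

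TGACGTCA, searched on both strands, was present in the 250 bases before the start of 2 of the 9 members with a promoter, Sst and Cartpt, and in 1.55% of all 32851 promoters in the RefSeq table. TGACGT was present in 4 of the 9, which were these genes together with Vip and Adcyap1, and in 6.47% of all promoters. TGANTCA, the letters of the AP-1 motif, was in 0 of the 9 members and in 6.75% of all promoters. A match describes these letters only.

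The libraries were not equal in quality. Reads on genes ranged from 4592891 to 8922011 per library, and 3 female libraries differed from the other 9 in the percent of reads with several mapping places. It was 56.0% in FN replicate 2 (FN2), 68.4% in FT replicate 2 (FT2), 52.6% in FT replicate 3 (FT3) and 43.0% to 45.5% elsewhere. FN2 and FT2 stood apart in a ratio of neuropeptide mRNAs too, whereas FT3 lay close to the other 9 libraries there. The Calca to Calcb count ratio was 22.5 in FN replicate 2 and 22.6 in FT replicate 2, compared with 9.15 to 13.3 in the other 9 libraries and 14.0 in FT replicate 3. All 13 sensory neuron markers had over 3 counts in every library, as the label requires, although Trpv1, the capsaicin receptor of nociceptors, was at 11.4, 5.44 and 35.1 CPM (reads of a gene per 1000000 reads on genes) in FN2, FT2 and FT3 and at 150.2 CPM or more in the other 9. Results on female libraries are therefore given with and without them. All 4 comparisons and the difference between sexes were fitted with edgeR's quasi-likelihood test over all genes with enough counts, with Benjamini-Hochberg adjusted p values.

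Without Vip, which was at the limit of detection, the means of the members ran from 3231 RPKM for Calca to 9.11 RPKM for Npy. The RPKM scale is per length and was used for every comparison of levels between genes. Calca, the gene of calcitonin and of the alpha form of CGRP, ranked 5 of 21627 genes with a mean of 3231 RPKM over the 12 libraries. It exceeded Tac1, the substance P precursor (mean 1087 RPKM, rank 27), in 12 of 12 libraries. Gal (galanin, mean 579 RPKM, rank 76), Calcb (the beta form of CGRP, 386 RPKM, rank 129), Cartpt (the CART peptide precursor, 179.9 RPKM, rank 353) and Adcyap1 (PACAP, 119.8 RPKM, rank 569) formed a middle range. Sst (somatostatin, 16.7 RPKM), Nppb (brain natriuretic peptide, 15.3 RPKM) and Npy (neuropeptide Y, 9.11 RPKM) lay lower. Over all 12 libraries the RPKM ranges of every gene and its neighbor in this order overlapped. Within MN, where the replicates were tight, 7 of the 9 neighboring ranges were separate, and only Adcyap1 with Cartpt and Sst with Nppb overlapped. In MN Gal held place 6 among the members with 78.1 ± 17.1 RPKM (SD, n = 3) and rank 865, below Cartpt (112 ± 16.7 RPKM) in 3 of 3 libraries. In MT it held 399 ± 52.7 RPKM, and its range overlapped that of Calcb (399.8 ± 37.5 RPKM).

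**Figure D1:**
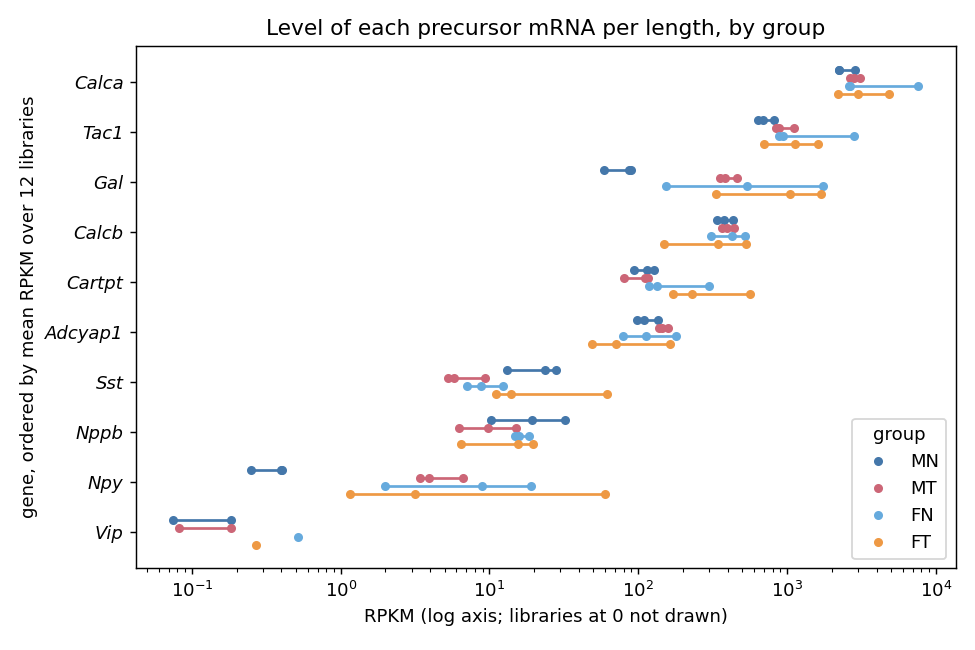
Level of each precursor mRNA in RPKM on a log axis, with 1 point per library and a line over the range of each group of 3 libraries. Libraries at 0 are not drawn. Calca lies highest in every group, and Gal moves from below Cartpt in MN to the range of Calcb in MT.

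Vip, the precursor of vasoactive intestinal peptide, had over 3 counts in 1 library only, FN replicate 2, with 6 counts or 0.783 CPM, and 0 counts in 6 libraries. The 3 counts that a count of 0 allows correspond to 0.336 to 0.653 CPM in these libraries, so Vip was not detectable in 11 of 12 and no fold is given for it. Such limits and intervals cover counting error alone, since reads without molecular identifiers are not independent molecules. Of the other members, 8 had more than 3 counts in every library, and Npy had 3 or fewer in all 3 MN libraries and in FT replicate 2.

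In males with a tumor, Gal rose and no other member passed the adjusted threshold of 0.05. Of the 9 members tested in MT versus MN, 1 passed, where 0.045% of all 13322 genes tested passed (6 genes). By the study's criteria for differential expression, which ask for an unadjusted p under 0.05, a fold over 1.5 and over 5 RPKM on average in at least 1 of the groups, 3 members qualified, Gal as higher and Sst and Nppb as lower, against 0.878% of genes. In the main fit of each comparison the p used for these criteria was that of edgeR, whereas the study used DESeq. Gal and Sst met these criteria in all 14 alternatives run, whereas Nppb met them in 8 and not in 6. For 5 of the 10 members the MT replicates were separate from those of MN, Gal, Npy, Tac1 and Adcyap1 being higher and Sst lower in MT, compared with 13.4% of genes. The median log2 difference of the members tested was 0.24 and that of all genes 0.00.

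Gal (mm9 chr19:3409919-3414472, minus strand) encodes galanin, a peptide with inhibitory and trophic actions on sensory neurons. It had 61.4, 41.6 and 63.7 CPM in MN replicates 1 to 3 and 253, 273 and 326 CPM in MT. Every MT library was at least 3.98 times every MN library. The group means of 284 ± 37.5 and 55.6 ± 12.2 CPM (SD, n = 3) differed by 2.37 on the log2 scale with a SE of 0.15, a fold of 5.17 (edgeR quasi-likelihood adjusted p = 0.000142, range over the alternatives 6.54e-49 to 1.00). This call was lost when the spread was estimated over the 4 groups together, which brings in the female libraries. The log2 difference was again 2.37 there, and the edgeR adjusted p was 1 with all 12 libraries and 0.92 without FN replicate 2 and FT replicate 2. Within the members' summed RPKM, a share that does not depend on library scaling, Gal took 1.63% to 2.52% in MN and 7.16% to 9.05% in MT.

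Npy (mm9 chr6:49772709-49779506) encodes neuropeptide Y, which is scarce in intact sensory neurons. It had 1, 2 and 2 counts in MN (0.141, 0.224 and 0.230 CPM) and 30, 14 and 18 counts in MT (3.77, 1.94 and 2.22 CPM). The pooled ratio of MT to MN was 13.2, with an exact 95% counting interval of 5.36 to 42.1. The groups were separate, but at a log2 difference of 3.64 (SE 0.57) the edgeR adjusted p was 0.085. It was 0.034 without the filter on low counts, 0.029 with limma-voom and 0.035 without MT replicate 3, in a range of 0.029 to 1.00 over the alternatives. Npy is also a peptide of sympathetic neurons, and the markers of autonomic neurons were therefore inspected. Of 9 such markers, 4 (Slc6a2, Hand2, Chat and Slc18a3) had 0 counts in all 12 libraries, and the summed level of the list was 30.1 to 36.3 CPM in MN and 25.5 to 36.3 CPM in MT. Most of it was Th (means 17.5 CPM in MN and 16.2 CPM in MT) and Slc18a2 (13.7 and 14.2 CPM). Dbh, Phox2a and Slc5a7 had means of at most 1.41 CPM in these groups, so the sum describes mainly Th and Slc18a2.

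Sst (mm9 chr16:23889667-23890930, minus strand) encodes somatostatin, an inhibitory peptide found in a small class of itch neurons. It was lower in MT, with 16.9, 7.85 and 14.2 CPM in MN and 3.14, 3.47 and 5.56 CPM in MT. The lowest MN library lay above the highest MT library, and the log2 difference was -1.65 (SE 0.33). This did not pass the main test (edgeR adjusted p = 0.21), whereas the DESeq2 adjusted p was 0.00198 and the edgeR adjusted p without MT replicate 3 was 0.042, in a range of 0.00198 to 1.00 over the alternatives. Nppb (mm9 chr4:147359897-147361314), the natriuretic peptide of the same class of neurons, had 25.0, 7.96 and 15.0 CPM in MN and 7.67, 4.86 and 11.7 CPM in MT. These ranges overlapped, and the log2 difference was -0.96 (SE 0.40, edgeR adjusted p = 0.70). It was -0.49 without MN replicate 1, and Nppb no longer qualified by the study's criteria without MN replicate 1, MN replicate 3, MT replicate 1 or MT replicate 2. Other markers of this class were read beside both genes. Of the 6 on the list, 0 passed the adjusted threshold, 4 were fitted lower and 2 higher, and their median log2 difference was -0.30. The receptor genes Cysltr2 (-1.07, SE 0.26) and Il31ra (-0.75, SE 0.25) were among the lower ones and Nts, the neurotensin precursor, was among the higher ones (1.10, SE 0.33). The summed level of the list was 395 to 512 CPM in MN and 327 to 556 CPM in MT. Most of it was Trpv1 (means 197.7 CPM in MN and 199.5 CPM in MT) and Osmr (179.6 and 158.7 CPM), so the sum describes mainly these genes. The part of this class in the values of Sst and Nppb was not tested.

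The precursors of CGRP and substance P, and Adcyap1 and Cartpt, did not pass the test between MT and MN. Calca (mm9 chr7:121774994-121779871, minus strand) had 4265, 3295 and 3316 CPM in MN and 4589, 3905 and 4160.0 CPM in MT, with overlapping ranges and a log2 difference of 0.24 (SE 0.12, edgeR adjusted p = 0.76). Calcb (mm9 chr7:121862157-121866879) differed by 0.08 (SE 0.12), from 368 ± 46.4 CPM in MN to 385 ± 36.0 CPM in MT. Tac1 (mm9 chr6:7505071-7512973) was 839, 708 and 661 CPM in MN and 867, 916 and 1144 CPM in MT. Its replicates were separate by a margin of 1.03 times, and its log2 difference was 0.42 (SE 0.12, edgeR adjusted p = 0.42). Adcyap1 (mm9 chr17:93598762-93604825), whose peptide PACAP dilates vessels and sensitizes pain pathways, was separate by an even smaller margin of 1.00 times, with 239 ± 40.5 CPM in MN, 306 ± 23.1 CPM in MT and a log2 difference of 0.37 (SE 0.12, edgeR adjusted p = 0.58). Cartpt (mm9 chr13:100668439-100670638, minus strand) had 97.8 ± 14.6 CPM in MN and 90.1 ± 17.2 CPM in MT, a log2 difference of -0.11 (SE 0.15).

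Counts of Calca join the calcitonin and CGRP transcripts, which are made from this gene by alternative splicing, so calcitonin and CGRP cannot be told apart here. Calca and Calcb are paralogs, and the stretch in which reads could be confused is shown because the ratio of these genes is used above. Of the 50-base windows of their GENCODE transcripts, 50 bases being the read length, 11 were common to both genes, which is 0.769% of the windows of Calca and 1.21% of those of Calcb. The longest run common to their coding sequences, starting at coding base 227 of Calca and 230 of Calcb, was 60 bases in the part that encodes CGRP.
Calca and Calcb: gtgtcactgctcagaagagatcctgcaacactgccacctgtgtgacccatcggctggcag

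**Figure D2:**
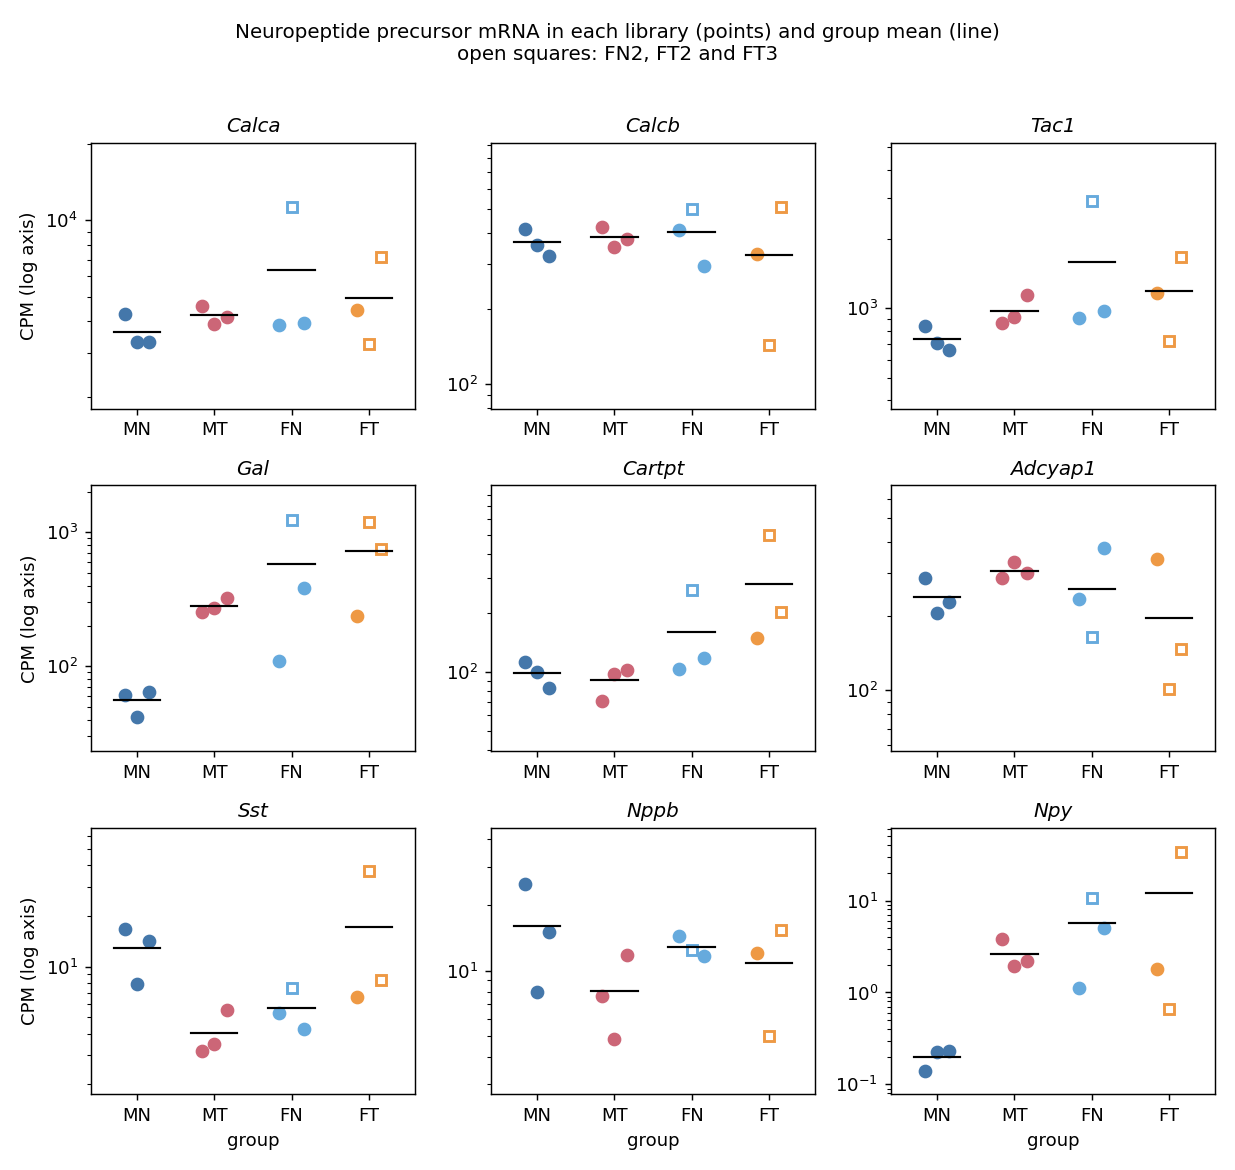
CPM of 9 members on log axes, with 1 point per library, a line at the mean of each group of 3, and open squares for FN replicate 2, FT replicate 2 and FT replicate 3. Gal and Npy are higher in every MT library than in every MN library and Sst is lower, while the female groups overlap for each gene; Vip was not drawn.

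Genes known to respond to axon injury were read beside Gal, because Gal is itself known as one. The list was chosen with earlier results of these data known. Of 14 tested, 2 passed the adjusted threshold in MT versus MN, Sprr1a and Gpr151, both higher, and 13 of 14 were fitted higher, with a median log2 difference of 0.51 against 0.00 over all genes. Sprr1a, a small proline-rich protein of regenerating axons, had 2.81, 1.34 and 3.33 CPM in MN and 47.9, 43.3 and 51.6 CPM in MT, a log2 difference of 4.27 (SE 0.24, edgeR adjusted p = 7.14e-05). Gpr151, an orphan receptor, went from 6.38 ± 2.27 to 23.9 ± 2.72 CPM (log2 difference 1.91, SE 0.24, edgeR adjusted p = 0.023). Abundant members of the list differed less. Jun (0.06, SE 0.10), Gap43 (0.28, SE 0.10), Hspb1 (0.31, SE 0.14) and Atf3 (0.58, SE 0.19) did not pass the adjusted threshold. Of the 14 tested, 10 had an unadjusted p under 0.05 by edgeR, all higher, compared with 922 of all 13322 genes. The replicates of 9 were separate, all higher in MT, compared with 13.4% of genes.

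Across libraries, Sprr1a was the gene most like Gal. The Pearson correlation of log2(CPM + 1) was 0.974 over 12 libraries and 0.994 over the 9 without FN2, FT2 and FT3, the highest among 9542 genes with a mean over 10 CPM. After it came Timp1 (0.965) over 12 libraries and Gpr151 (0.961) and Npy1r (0.956) over 9. For Npy the most like gene was Serpinb1a, with 0.929 over 12 libraries and 0.956 over 9, and for Sst over 9 libraries it was Plcb3 (0.962), with Npy2r (0.935) also among the 5 nearest. Calca was most like Tbcb (0.987) over 12 libraries and Bud31 (0.946) over 9, so its neighbors depended on the libraries used. The points share the 4 groups and the libraries' depth, and the values are descriptions.

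**Figure D3:**
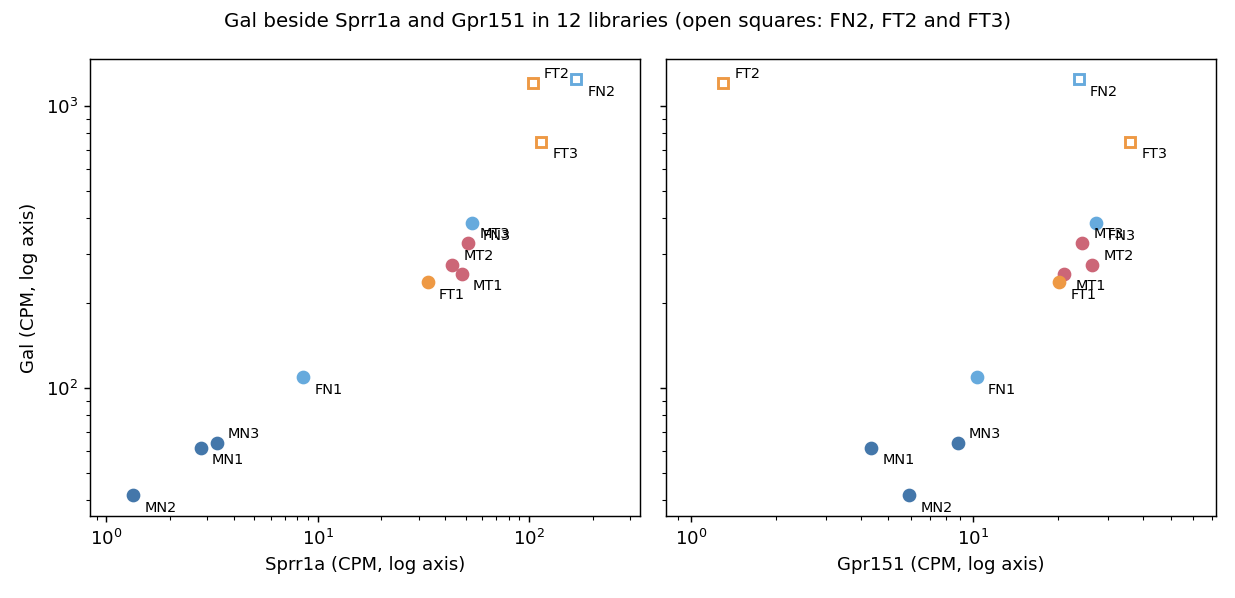
Gal against Sprr1a (left) and Gpr151 (right) in 12 libraries, in CPM on log axes, with open squares for FN replicate 2, FT replicate 2 and FT replicate 3. The libraries of normal males lie lowest on both axes at left, FN replicate 1 lies between them and the rest, and FT replicate 2 leaves the pattern at right with 1.31 CPM of Gpr151.

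The genes that make and store peptides were read beside Gal. Of 17 genes for processing enzymes and dense-core vesicle proteins, 0 passed in MT versus MN by edgeR (2 had an unadjusted p under 0.05, 1 in each direction), and their median log2 difference was 0.04. The most abundant were Cpe, the carboxypeptidase that trims peptides (0.04, SE 0.09), the secretory protein Pcsk1n (-0.10, SE 0.08) and the granins Scg3 (-0.06, SE 0.10) and Scg5 (0.12, SE 0.15). Receptors of the member peptides gave 0 of 16 past the adjusted threshold (3 with an unadjusted p under 0.05), with a median of 0.06. The 3 receptors at an unadjusted p under 0.05 are named after their values were seen. Npy1r, a receptor of neuropeptide Y, was 29.6 ± 0.502 CPM in MN and 56.6 ± 11.4 CPM in MT (log2 difference 0.94, SE 0.14, edgeR adjusted p = 0.074), and Npy2r, another, was 38.2 ± 6.47 and 23.5 ± 4.57 CPM (-0.68, SE 0.17, edgeR adjusted p = 0.34). Adcyap1r1, the receptor of PACAP, was scarce, with 2.28 ± 0.62 CPM in MN and 0.528 ± 0.294 CPM in MT (-2.09, SE 0.52, edgeR adjusted p = 0.34). Galr1 and Galr2, the galanin receptors measured, had group means of at most 3.07 CPM. Among 45 other neuropeptide precursors, 6 could be tested and 0 passed, with 2 at an unadjusted p under 0.05 and a median of 0.82. The only abundant precursor of that list, Nmb (neuromedin B), was 243 ± 37.0 CPM in MN and 252 ± 28.8 CPM in MT.

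In females, no member passed the adjusted threshold between FT and FN, where 0% of 13408 genes passed (159 at an unadjusted p under 0.05). The replicates of 0 of 10 members were separate, compared with 2.29% of genes. By the study's criteria with the edgeR p, 1 member, Sst, qualified as higher in FT, against 0.753% of genes. The paper, which used DESeq and gives 3 samples per group, reports Gal and Npy as higher in FT. Its folds for them equal the ratios of mean CPM without FN replicate 2 and FT replicate 2, 2.00 and 5.78. Its calls and the values from all 6 libraries here may therefore rest on different sets of libraries. The median log2 difference of the 9 members tested was -0.17, and that of all genes -0.03. Gal had 109, 1245 and 383 CPM in FN and 237, 1205 and 747 CPM in FT. Both groups spread over more than 5 times, and the log2 difference was 0.35 with a SE of 0.91. Sst had 5.28, 7.44 and 4.25 CPM in FN and 6.58, 37.0 and 8.37 CPM in FT. Its log2 difference of 1.76 (SE 0.78, edgeR adjusted p = 1.00) rested on FT replicate 2 and was 0.31 without that library, and Sst met the study's criteria in 7 of 16 alternatives. Npy had 1.13, 10.7 and 5.07 CPM in FN and 1.78, 0.653 and 34.0 CPM in FT, and its log2 difference of 1.10 (SE 1.16) became -2.29 without FT replicate 3. Cartpt differed by 0.90 (SE 0.72), with 103, 259.5 and 117 CPM in FN and 149, 495 and 200.2 CPM in FT, and by -0.019 without FT replicate 2.

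Leaving out FN replicate 2 and FT replicate 2, as an alternative planned with these libraries known, gave log2 differences between FT and FN of 1.19 for Gal, 2.76 for Npy, 0.74 for Calca and 0.75 for Tac1, each with an edgeR adjusted p of 0.74. The ratio of mean CPM in this selection was 2.00 for Gal and 5.78 for Npy, with overlapping libraries. These ratios equal the folds that the paper reports for FT versus FN. Calca, Tac1, Cartpt and Sst then no longer overlapped between the 2 libraries of each group. Groups of 2 separate easily, and the share of all genes separate there was not computed, so no difference is read from this. When FT replicate 3 was left out as well, 1 FT library remained and was assumed to vary like the others. Gal then differed by -0.030 and Npy by -0.75. No direction for Gal or Npy in the female tumor comparison was therefore shared by these selections.

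**Figure D4:**
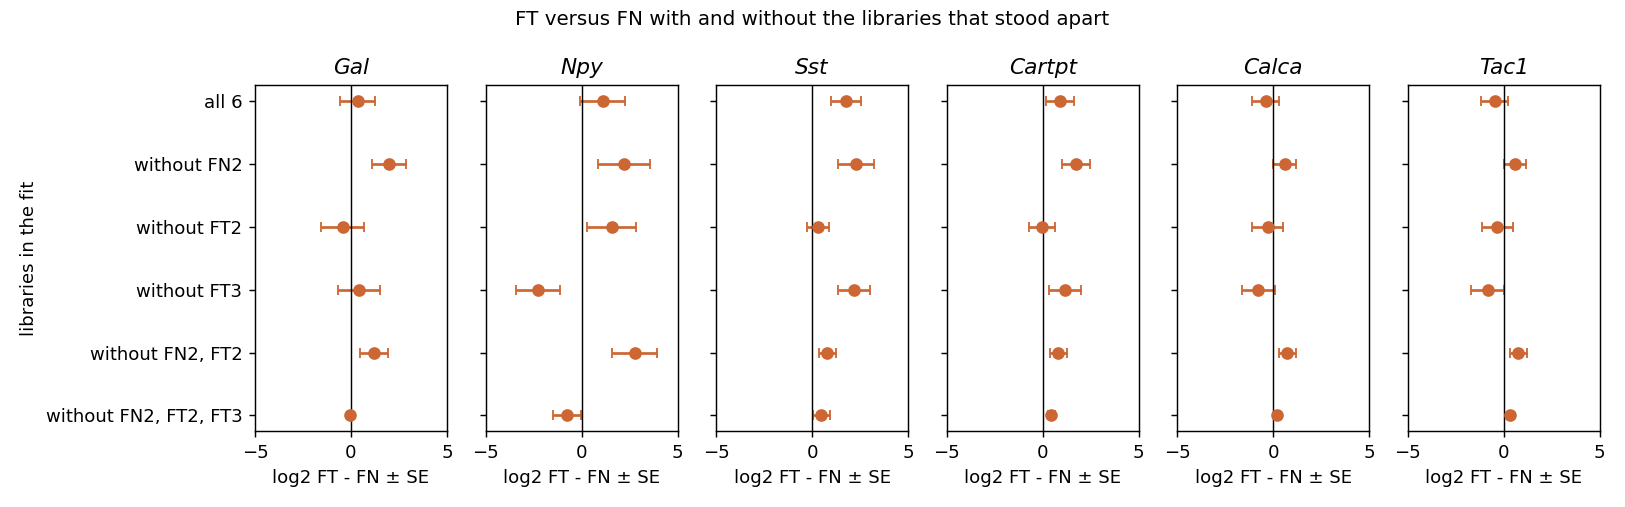
Log2 difference between FT and FN for 6 members, with bars of 1 SE, fitted by edgeR on all 6 libraries and on selections without the libraries that stood apart. The points of Gal, Npy, Calca and Tac1 fall on either side of 0 depending on the libraries in the fit, and those of Sst lie above 0 in all 6.

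Between normal females and males, 0% of 12893 genes passed the adjusted threshold by edgeR (748 at an unadjusted p under 0.05), and 0 of the 8 members tested passed. Npy and Vip were not tested there. By the study's criteria 1 member qualified, Gal as higher in FN, against 3.3% of genes. The replicates were separate for 4 of the 10 members, compared with 20.1% of genes, Gal, Npy and Tac1 being higher in FN and Sst lower. Gal was 109, 1245 and 383 CPM in FN against at most 63.7 CPM in MN, so that each normal female library exceeded each normal male library by at least 1.71 times. The log2 difference was 3.69 (SE 0.95, edgeR adjusted p = 0.63). Without FN replicate 2 it was 2.10 with an edgeR adjusted p of 0.0043, in a fit where 728 genes passed, and Sst then also passed (-1.48, edgeR adjusted p = 0.020). Gal had an adjusted p between 0.0043 and 0.98, and Sst between 0.017 and 0.98, over every alternative run. The value in FN replicate 3, 383 CPM, lay above every MT library. Npy had 9, 82 and 37 counts in FN against 1, 2 and 2 in MN, a pooled ratio of 27.6 with an exact 95% counting interval of 11.5 to 86.6. Without FN replicate 2 the ratio was 14.9 (5.95 to 48.1). This comparison shares its MN libraries with the comparison of MT and MN, in which Gal, Npy and Tac1 were also higher and Sst lower than the same 3 MN libraries.

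Summed markers of other cell types differed between these groups as well. The summed level of 11 macrophage markers was 16.1 to 26.2 CPM in MN and 9.43 to 149.6 CPM in MT, but 110.3 to 254 CPM in FN and 189 to 280.3 CPM in FT, and 7 of 7 tested were higher in FN than MN at an unadjusted p under 0.05 by edgeR, while 0 passed the adjusted threshold. By antibody staining the paper reports the products of Csf1r and C1qa, which are on this list, in tongue-innervating neurons of females and far less in males. Whether these mRNAs came from neurons or from macrophages cannot be told apart here. Satellite glia markers summed to 4151 to 4979 CPM in MN, 3541 to 4961 CPM in MT, 8171 to 16456 CPM in FN and 6624 to 17942 CPM in FT. Most of this was Apoe, with 9554 ± 5235 CPM in FN and 9382 ± 5727 CPM in FT, so the sum describes mainly that gene. Of 7 glial genes tested in FN versus MN, 0 passed and 7 were fitted higher. The replicates of 1 were separate, compared with 20.1% of genes. The macrophage and glial sums were higher in FN than in MN, as Gal and Npy were, and their part in those values was not tested. Between MT and MN the glial sums, of which Apoe made up the most (3649 ± 347 CPM in MN and 3125 ± 646 CPM in MT), overlapped, and 0 of the 8 glial genes passed by edgeR (2 at an unadjusted p under 0.05). The replicates of these 2 genes, named after their values were seen, were separate in opposite directions. Fabp7, a fatty acid binding protein, had 277, 249 and 215 CPM in MN and 141, 98.5 and 117 CPM in MT (log2 difference -1.04, SE 0.15, edgeR adjusted p = 0.064). Cdh19, a cadherin, had 51.2, 43.7 and 48.1 CPM in MN and 55.1, 76.3 and 114 CPM in MT (0.79, SE 0.20, edgeR adjusted p = 0.36). Their part in the male values of Gal, Npy and Sst was not tested.

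Between FT and MT, 0% of 12846 genes passed (1232 at an unadjusted p under 0.05) and so did 0 of the 9 members tested by edgeR. By the study's criteria Cartpt, Gal and Sst qualified as higher in FT, against 7.2% of genes. The replicates of 2 members, Cartpt and Sst, were separate, compared with 17.8% of genes. Cartpt, which is found in several kinds of sensory neuron, was 149, 495 and 200.2 CPM in FT and 70.4, 97.7 and 102 CPM in MT (log2 difference 1.93, SE 0.57, edgeR adjusted p = 0.51), and the difference was 1.00 without FT replicate 2. Gal differed by 1.65 (SE 0.61), by 0.86 without FT replicate 2 and by -0.31 without FT replicates 2 and 3, and it met the study's criteria in 6 of 15 alternatives. Sst differed by 2.41 (SE 0.77) and by 0.92 without FT replicate 2, where it no longer qualified.

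The difference between the tumor effects of the sexes was tested over the 12 libraries, where 0% of 13835 genes passed by edgeR (203 at an unadjusted p under 0.05) and 0 of the 9 members. The largest was that of Sst, whose log2 difference was 3.44 higher in females than in males (SE 0.95, unadjusted p = 0.0028 by edgeR, adjusted p = 1.00), and 1.97 without FT replicate 2. The values for Gal (-2.01, SE 1.08) and Npy (-2.61, SE 1.72) were negative, that is, the female effect was fitted as smaller than the male effect. Their size depended on the libraries. Gal was at -0.48 without FN replicate 2 and at -2.78 without FT replicate 2, and Npy was at -1.50 without FN replicate 2, at -5.87 without FT replicate 3 and at -0.94 without FN replicate 2 and FT replicate 2. A rise of Gal past the adjusted threshold in males and not in females was thus not shown to be a difference between the sexes.

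**Figure D5:**
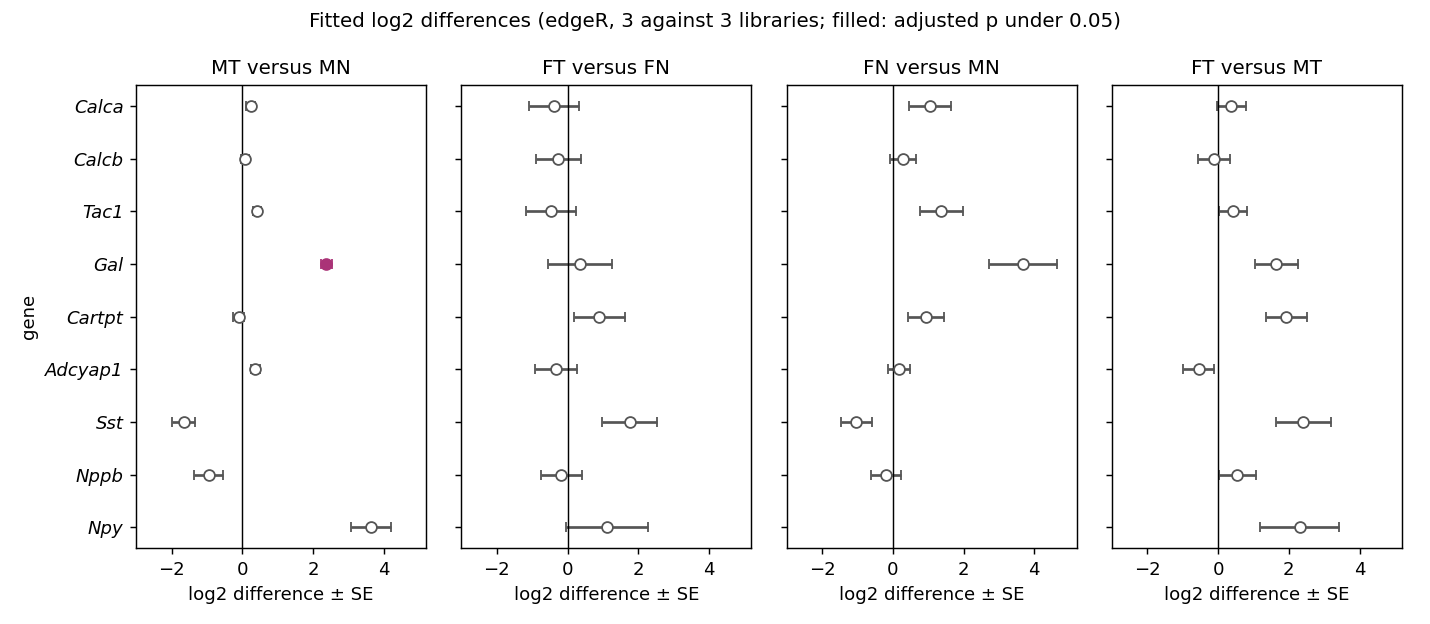
Log2 differences of 9 members in the 4 comparisons, with bars of 1 SE; a filled point marks an adjusted p under 0.05. Only Gal in MT versus MN is filled, the bars of every member are longer in the comparisons with female libraries, and Npy has no point in FN versus MN because it was not tested there.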

How the data were processed

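RNA of 12 samples of sorted TG neurons, 3 per group, was sequenced as SMART-seq2 libraries with 50-base single reads. The labels name sorted TG neurons as the source and describe the sort, although their extraction text speaks of RNA from tumors. The samples were read as sorted neurons. Per the labels and methods, the authors aligned reads to mm9 with TopHat2 and counted them per gene with HTSeq (CASAVA 1.8.2 and SAMtools are also named). Versions of the other tools, the annotation and the strand setting were not given in the sources used here. The deposited values are raw read counts. The 5 summary lines of each table, which hold 76.3% to 88.8% of all reads, were left out. Most of these reads mapped to several places or to no feature.

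CPM used reads on genes as the total. RPKM used exon lengths of GENCODE M1 (mm9), which matched 21627 symbols (95.7%). Each comparison was fitted on its 6 libraries with edgeR 4.0.16 (TMM, filterByExpr, quasi-likelihood test, Benjamini-Hochberg adjustment) in R 4.3.3, and the difference between sexes on 12. The sex comparisons used no gene of the X or Y chromosome (994 dropped). SE is the size of the log2 difference divided by the root of F. The members, lists and choice of 2-group fits were made with earlier results of these data known. A 4-group fit, which estimates the spread over all 12 libraries, was an alternative, as were DESeq2 1.42.0, limma 3.58.1 and libraries left out. The named genes were the members, list genes past the adjusted threshold, up to 4 per list over 100 CPM, and the most correlated genes. Npy1r, Npy2r, Adcyap1r1, Galr1, Galr2, Fabp7, Cdh19, Cysltr2, Il31ra, Osmr, Nts, Trpv1 and the autonomic markers named were chosen after their values were seen. Some genes are not reported here. Code was tested on simulated data. Labels give independent samples, each a pool of ganglia, and p values measure the spread between pools. The replicate numbers were not taken as pairs. Figures and other calculations used Python 3.11.15 with pandas 2.3.3, scipy 1.17.1 and matplotlib 3.10.9.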

Additional observations from a re-analysis of the deposited data

How the results depend on the processing

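Between MT and MN the log2 difference of Gal lay between 2.21 and 2.47 and passed the adjusted threshold in every alternative run except the 4-group fits. The number of genes passing there was 6, but 20 without the filter on low counts, 51 with DESeq2, 30 with limma-voom, 12 with the replicate block, 3 when scaled to pan-neuronal genes, 0 in the 4-group fit of 12 libraries and 0 in that fit without FN replicate 2 and FT replicate 2, and 2 to 34 when 1 library was left out. The members passing there numbered 1, but 2 without the filter (Gal and Npy), 2 with DESeq2 (Gal and Sst), 2 with limma-voom (Gal and Npy), 0 in each 4-group fit, and 1 to 3 when 1 library was left out, with 3 without MT replicate 3. For FT versus FN the genes passing numbered 1 with limma-voom and 101 without all 3 libraries that stood apart. For FN versus MN they numbered 68 with DESeq2, 974 with limma-voom, 728 without FN replicate 2, and 0 to 728 when 1 library was left out, and the members passing were 1 with DESeq2, 2 with limma-voom, 2 without FN replicate 2, and 0 to 2 when 1 library was left out. For FT versus MT they numbered 190 with DESeq2, 3 with limma-voom and 21 with the replicate block, and 2 members passed with DESeq2, Cartpt and Sst.

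The same-numbered replicates of MT and MN deviated together little (correlations from 0.012 to 0.19). Those of FT and FN had correlations of 0.58, 0.20 and -0.38 for replicates 1 to 3. The labels give independent samples, so the numbers were not taken as pairs, and a replicate block was run as an alternative. With the replicate block Gal differed by 2.38 between MT and MN (edgeR adjusted p = 0.00039), and no other member passed the adjusted threshold in any comparison. By the study's criteria Sst no longer qualified in FT versus FN with the block (log2 difference 1.31).

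Alternatives that kept every single library, or left out the libraries that stood apart together, reversed 32 log2 differences of members. Of these, 17 were in FT versus FN, for members whose difference there was within its SE. Elsewhere some reversed differences were larger than their SE, as for Gal (1.65, SE 0.61) and Npy (2.30, SE 1.13) in FT versus MT and Tac1 (-0.93, SE 0.70) in the difference between the sexes. In FT versus FN Calca became 0.52, 0.74, 0.21 and 0.70, in that order with limma-voom, without FN replicate 2 and FT replicate 2, without FT replicate 3 too, and in the 4-group fit without FN replicate 2 and FT replicate 2. Tac1 became 0.55, 0.75, 0.33 and 0.71 in the same order. Calcb became 0.12, 0.41 and 0.37 and Nppb 0.034, 0.22 and 0.18 under these settings other than the third. Under the third, Gal became -0.030, Npy -0.75 and Adcyap1 0.17. In FN versus MN Calcb became -0.045 with limma-voom, -0.017 when scaled to pan-neuronal genes, -0.11 without FN replicate 2 and -0.12 in the 4-group fit without it and FT replicate 2. In FT versus MT Calca became -0.035 when scaled to pan-neuronal genes, Calcb 0.17 without FT replicate 2 and 0.17 in the 4-group fit, and without FT replicate 3 too Gal became -0.31, Npy -0.63 and Adcyap1 0.10. In the difference between the sexes Calca became 0.25 with limma-voom and 0.46 without FN replicate 2 and FT replicate 2, Calcb 0.29 without them, and Tac1 0.11 and 0.29. The cause was not tested. Scaling to pan-neuronal genes lowered the median log2 difference of all genes to -0.29 in FT versus FN, -0.08 in FN versus MN, -0.30 in FT versus MT and -0.26 in the difference between the sexes.

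Leaving out 1 library, or the 2 or 3 that stood apart, gave ranges that crossed 0. In FT versus FN the ranges were -0.77 to 0.74 for Calca, -0.79 to 0.41 for Calcb, -0.83 to 0.75 for Tac1, -0.43 to 1.97 for Gal, -0.019 to 1.76 for Cartpt, -0.56 to 0.22 for Nppb, -0.83 to 0.17 for Adcyap1 and -2.29 to 2.76 for Npy. In FN versus MN they were -0.11 to 0.31 for Adcyap1, -0.11 to 0.52 for Calcb and -0.52 to 0.27 for Nppb. In FT versus MT they were -0.59 to 0.17 for Calcb, -0.97 to 2.83 for Npy, -0.31 to 2.09 for Gal and -1.05 to 0.10 for Adcyap1, and in MT versus MN -0.014 to 0.18 for Calcb and -0.22 to 0.027 for Cartpt. In the difference between the sexes they were -0.99 to 0.46 for Calca, -0.86 to 0.29 for Calcb and -1.26 to 0.29 for Tac1. Depth limited Vip and the Npy counts of MN.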

Other observations

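The 10 members together took 0.471% to 0.602% of the reads on genes in MN and 0.588% to 0.65% in MT, but 1.64% in FN replicate 2 and 1.05% in FT replicate 3. In FT replicate 2 the members made up 0.595% of reads with another composition, Gal taking 31.3% of the members' summed RPKM and Calca 40.5%, where Calca took 55.4% to 63.5% in the other 11 libraries. FT replicate 2 also held the highest Cartpt and Sst of all libraries, 495 and 37.0 CPM, and the lowest Calca, Calcb and Adcyap1, 3242, 143 and 102 CPM. Neutrophil markers, 6 genes, summed to 0.6 to 24.6 CPM in MN, 6.16 to 31.5 CPM in MT, 17.1 to 76.2 CPM in FN and 70.6 to 193 CPM in FT. The ranges of MN and MT overlapped, as did those of FN and FT. Nts, the neurotensin precursor, was 43.2 CPM in FN replicate 1 and 41.7 CPM in FT replicate 3, and 6.47 to 27.1 CPM in the other 10 libraries.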
